A study of Arabidopsis thaliana with 4 samples.

Results

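The general phenylpropanoid genes of Arabidopsis encode phenylalanine ammonia-lyase (PAL), cinnamate 4-hydroxylase (C4H) and 4-coumarate:CoA ligase (4CL). They were taken by locus as *PAL1*, *PAL2*, *PAL3*, *PAL4*, *C4H*, *4CL1*, *4CL2*, *4CL3* and *4CL5*, which are 9 of the 27206 genes in the expression files, by a rule that uses no measured value. All 9 passed the filter on low values, set at an average of 1 RPKM. The RNA-Seq data compare plants homozygous for a mutation in *SEEDSTICK* (*STK*), a MADS-box gene of ovule and seed development, with wild-type plants, both of strain Columbia. The mutants are labelled stk-/-, and the study's methods describe the *stk-2* allele as an insertion close to a splice site of an intron. Each genotype has 2 biological replicates of inflorescences and siliques, collected up to 5 days after pollination (DAP), from plants grown under short or long days. It is not given which day length each library had or whether the replicates came from separate plantings, so p-values measure the spread between these libraries.

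PAL removes ammonia from phenylalanine to give cinnamic acid, C4H, a cytochrome P450 at the endoplasmic reticulum, hydroxylates it to p-coumaric acid, and 4CL joins p-coumaric acid to coenzyme A. p-Coumaroyl-CoA then feeds the flavonoids, which include the proanthocyanidins of the seed coat, the monolignols of lignified walls and the hydroxycinnamoyl conjugates of the pollen coat. In flowers and young siliques the same enzymes therefore serve petals, anthers, vessels and seed coats at once.

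None of the 9 genes passed the threshold in *stk* plants. With limma on log2(RPKM + 1) and Benjamini-Hochberg adjustment over 19044 genes, an adjusted p under 0.05 was reached by 0 members, and by 0% of all genes tested. *PAL4* was the member with the largest difference, with a mean of 53.0 ± 4.55 RPKM in *stk* and 70.1 ± 7.64 RPKM in wild type (SD, n = 2 each), a ratio of 0.755. It was the 1 member of 9 that was lower in *stk* at an unadjusted p under 0.05, against 3.53% of all genes tested, and 0 members were higher at that threshold, against 5.66% of all genes. The ratios of mean RPKM over the 9 members ran from 0.755 to 1.08. In 4 of 9 members (*PAL2*, *PAL4*, *4CL2* and *4CL3*) both *stk* libraries lay below both wild-type libraries, against 26.8% of all genes tested, and in 0 members both lay above, against 16.3%. Toward lower levels both shares exceed those of all genes, toward higher levels both fall short, and they rest on 1 and on 4 genes. The members' median log2 fold change was −0.13, beside −0.05 over all genes tested. Because whole organs were used, fewer cells of a type and less RNA per cell cannot be told apart.

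In contrast to the members, *DFR*, *LDOX* and *BAN*, the late enzymes of the proanthocyanidin branch that the study singled out on these same samples, had log2 fold changes of 1.10, 1.11 and 1.10. Their 95% intervals began at 0.78, 0.77 and 0.73, while the highest upper limit among the members was 0.57, for *PAL3*. The intervals of all 9 members lay between −0.82 and 0.57, so none of them reached 1 log2 unit in either direction. The difference between the members and the late branch was not itself tested.

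**Figure D1:**
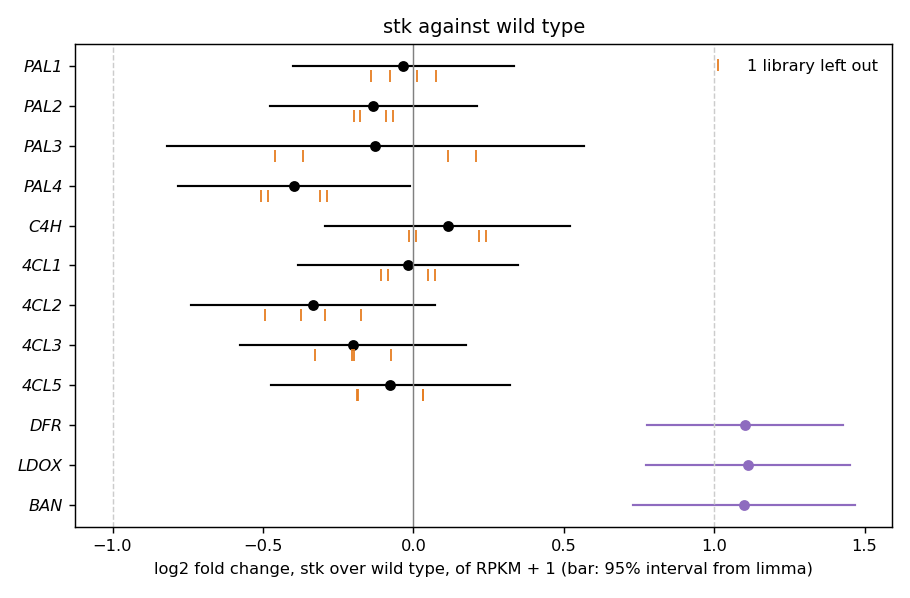
Log2 fold changes, *stk* over wild type, of RPKM + 1 for the 9 members (black) and *DFR*, *LDOX* and *BAN* (purple), with bars for the 95% interval from limma and orange ticks for the value with 1 library left out. The members' points lie between −0.40 and 0.11, and the ticks of *PAL1*, *PAL3*, *C4H*, *4CL1* and *4CL5* fall on both sides of 0.

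The series as a whole limits how small a difference can be seen. *STK* itself had 7.91 and 7.96 RPKM in the *stk* libraries and 38.7 and 40.9 RPKM in the wild-type libraries, a log2 fold change of −2.19 (SE 0.13, limma adjusted p = 0.0884). The mutated gene thus did not pass in limma and passed in Baggerley's test, the one the study used (adjusted p = 3.8e-08). Beside the 0 genes with an adjusted p under 0.05, limma gave 1749 genes (9.18%) with an unadjusted p under 0.05, and Baggerley's test gave 67 genes after adjustment. Library sizes recovered from the spacing of the RPKM values were 30564185 and 33673020 reads in *stk* and 16965995 and 21075042 reads in wild type. Per the file headers *stk* replicate 1 ran in lane 7 and the other 3 libraries in lane 1, whereas the series description speaks of a single lane. This conflict is unresolved. If the headers hold, the lane of *stk* replicate 1 and its plants cannot be told apart. Markers of the labelled organs were present, and several did not overlap between the genotypes. Over all genes tested, 26.8% had both *stk* libraries below both wild-type libraries, and 16.3% had both above. *VGD1* of pollen had 248 and 214 RPKM in *stk*, against 281 and 251 RPKM in wild type, and *CRC* of carpels and nectaries had 17.2 and 15.2 RPKM in *stk*, against 27.9 and 18.6 RPKM in wild type. Both were lower in both *stk* libraries, and the part of pollen and carpels in the members' values was not tested. *AGL62* of endosperm was higher in both, with 2.26 and 1.44 RPKM in *stk*, against 0.625 and 1.30 RPKM in wild type. *AP3* of petals and stamens overlapped at 79.6 to 104 RPKM, and *PYK10* of roots was listed at 0.109 to 0.473 RPKM.

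Most of the members, 7 of 9, hold an AC element near the start of the gene. AC elements are short motifs rich in A and C of phenylpropanoid promoters to which MYB factors bind. Because these motifs are known from this pathway, their presence in the members is no independent finding. The letters ACCTACC (AC-I), ACCAACC (AC-II) and ACCTAAC (AC-III) were searched on both strands in 1 window per gene. The window ran from 250 bases before to 50 bases after the start of the gene's model with the highest mean RPKM. At least 1 AC element stood in the windows of 7 members, against 7.59% of 26708 gene windows, and 3 members (*C4H*, *4CL1* and *4CL2*) held at least 2, against 0.577%. All of these matches read on the strand of the gene, and none overlapped another. By motif, 3 members held AC-I (1.40% of all windows), 4 held AC-II (3.56%) and 2 held AC-III (2.95%). The CArG box, the motif of MADS-box factors such as STK, was searched as an exact match to CCWWWWWWGG, where W is A or T. It was found in 0 of 9 windows and in 3.02% of all windows. Its absence says only that these exact letters are not in these 300 bases. The study's own search for CArG boxes covered longer regions and allowed 1 mismatch, so its boxes cannot be set against these counts. A match is a description of the sequence and not a measured binding site.

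Printed here are the windows of the 3 members with several AC elements, of *PAL1* with a single element, and of *PAL4*, the member with the largest difference, which had none. They are read from the TAIR10.1 genome 5′ to 3′ on the strand of the gene, with AC elements in capitals.
C4H (chr2:12995721-12996020, minus strand): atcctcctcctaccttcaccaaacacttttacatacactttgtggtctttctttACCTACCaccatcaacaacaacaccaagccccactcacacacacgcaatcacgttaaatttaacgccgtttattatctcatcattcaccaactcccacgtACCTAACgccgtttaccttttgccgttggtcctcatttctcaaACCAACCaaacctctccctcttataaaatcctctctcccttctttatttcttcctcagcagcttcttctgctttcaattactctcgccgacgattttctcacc
4CL1 (chr1:19161503-19161802, minus strand): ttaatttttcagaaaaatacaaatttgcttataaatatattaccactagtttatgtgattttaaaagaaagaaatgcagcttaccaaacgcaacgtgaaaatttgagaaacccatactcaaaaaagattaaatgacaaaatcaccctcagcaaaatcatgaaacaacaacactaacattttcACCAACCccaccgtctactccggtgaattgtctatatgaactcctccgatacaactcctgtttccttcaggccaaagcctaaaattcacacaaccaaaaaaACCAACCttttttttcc
4CL2 (chr3:7457330-7457629, minus strand): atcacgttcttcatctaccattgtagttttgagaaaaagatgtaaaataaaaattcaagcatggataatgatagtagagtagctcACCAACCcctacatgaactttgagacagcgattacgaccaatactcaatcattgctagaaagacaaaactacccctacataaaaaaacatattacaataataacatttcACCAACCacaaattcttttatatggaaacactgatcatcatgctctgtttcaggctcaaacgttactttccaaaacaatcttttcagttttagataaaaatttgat
PAL1 (chr2:15560314-15560613, minus strand): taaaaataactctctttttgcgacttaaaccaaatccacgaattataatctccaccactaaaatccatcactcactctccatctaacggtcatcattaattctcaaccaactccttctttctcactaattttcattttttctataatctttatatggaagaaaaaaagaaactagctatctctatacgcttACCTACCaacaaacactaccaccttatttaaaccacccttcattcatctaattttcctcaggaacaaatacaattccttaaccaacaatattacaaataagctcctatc
PAL4 (chr3:3203763-3204062, plus strand): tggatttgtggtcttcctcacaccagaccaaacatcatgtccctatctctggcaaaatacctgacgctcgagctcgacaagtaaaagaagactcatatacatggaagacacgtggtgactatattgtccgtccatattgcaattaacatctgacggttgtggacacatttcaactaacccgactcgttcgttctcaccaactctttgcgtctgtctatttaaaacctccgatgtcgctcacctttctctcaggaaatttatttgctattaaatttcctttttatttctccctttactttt

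Counted in bases from the start of the gene model, with positions before it negative, the elements of *C4H* began at −196, −96 and −53, 1 of each kind, and the pair of AC-II elements of *4CL2* at −165 and −56. *4CL1* held an AC-II element at −68 and another at 34, after the start. *PAL1* had AC-I at −59, *PAL2* had AC-III at −6, *PAL3* had AC-II at −8 and *4CL3* had AC-I at −201. *PAL4* and *4CL5* had none. Members with and without an element were found on both sides of the members' median: *4CL2* with 2 elements had a log2 fold change of −0.33, *C4H* with 3 had 0.11, *PAL4* had −0.40 and *4CL5* had −0.08.

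**Figure D2:**
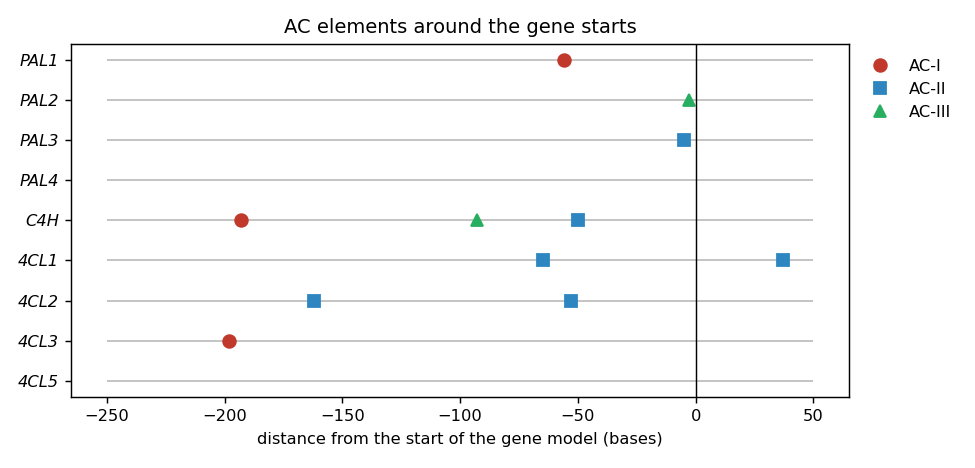
Positions of AC-I, AC-II and AC-III elements from 250 bases before to 50 bases after the start of each member's most abundant gene model. Distance in bases is on the x axis, with 1 line per gene. *C4H* has 3 elements, *4CL1* and *4CL2* have 2 each, and *PAL4* and *4CL5* have none.

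Levels of the members, in RPKM and thus per length, covered a wide range. *C4H* was the highest with a mean of 176 RPKM over the 4 libraries, and 97.4% of the genes tested were lower. It was followed by *PAL1* (150 RPKM), *PAL2* (84.6), *4CL1* (68.9), *PAL4* (61.6), *4CL3* (46.4), *4CL2* (10.3), *4CL5* (8.41) and *PAL3* (2.94 RPKM), and 15.0% of the genes tested were lower than *PAL3*. The libraries of *C4H* and *PAL1* overlapped, as did those of *4CL1* and *PAL4*, of *PAL4* and *4CL3*, and of *4CL2* and *4CL5*. The other neighbours in this order did not overlap in any library. Within both families the least abundant genes, *PAL3* among the PAL genes and *4CL2* and *4CL5* among the 4CL genes, lay far below the others in every library.

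**Figure D3:**
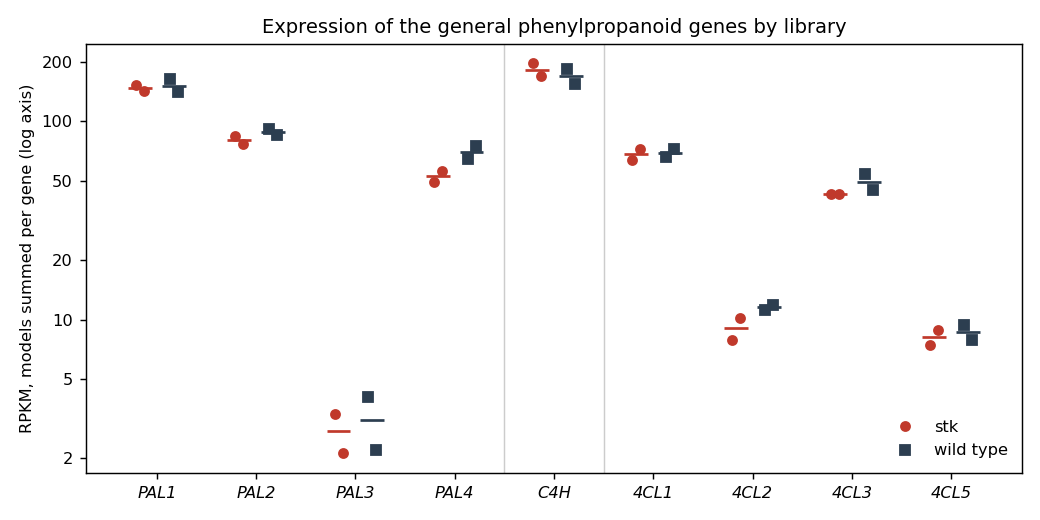
RPKM of the 9 members in each library on a log axis, with *stk* as red circles, wild type as dark squares and a line at each genotype's mean. *PAL2*, *PAL4*, *4CL2* and *4CL3* have both *stk* libraries below both wild-type libraries, and the distance between genes is far larger than the distance between genotypes.

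*PAL1* (AT2G37040) lies on the minus strand of chromosome 2 (15557376 to 15560363, TAIR10) and encodes, with *PAL2*, the bulk of the PAL transcript measured here. *PAL1* had 152 and 143 RPKM in *stk*, against 163 and 140 RPKM in wild type. The wild-type libraries enclosed both *stk* libraries. Its log2 fold change was −0.03 (SE 0.15, 95% interval −0.40 to 0.33, limma unadjusted p = 0.831 and adjusted p = 0.956).

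*PAL2* (AT3G53260, chromosome 3, 19744051 to 19746780, minus strand) is the closest relative of *PAL1*. It had 84.3 and 76.9 RPKM in *stk*, against 91.2 and 85.8 RPKM in wild type. Both *stk* libraries were lower, but *stk* replicate 1 and wild-type replicate 2 were close together, and the log2 fold change was −0.13 (SE 0.14, interval −0.48 to 0.21, limma adjusted p = 0.778).

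*PAL4* (AT3G10340, chromosome 3, 3204013 to 3208022, plus strand) was the member with the clearest difference. It had 49.8 and 56.2 RPKM in *stk*, against 64.7 and 75.5 RPKM in wild type. The genotypes did not overlap, and the highest *stk* library lay below the lowest wild-type library. The log2 fold change was −0.40 (SE 0.15, interval −0.78 to −0.01), with an unadjusted p of 0.0453 and an adjusted p of 0.532 in limma, and an unadjusted p of 0.0114 and an adjusted p of 0.99994 in Baggerley's test. In limma the difference did not pass without *stk* replicate 1 (unadjusted p = 0.192), which leaves the libraries of lane 1, nor without wild-type replicate 2 (unadjusted p = 0.181). It passed without *stk* replicate 2 (limma unadjusted p = 0.0443) and without wild-type replicate 1 (limma unadjusted p = 0.0497). The log2 fold change stayed between −0.51 and −0.29 over these 4 settings.

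*PAL3* (AT5G04230, chromosome 5, 1160634 to 1163898, plus strand) was the member with the lowest level and the fewest reads, 246 and 171 in *stk* and 164 and 109 in wild type. It had 3.36 and 2.12 RPKM in *stk*, against 4.07 and 2.20 RPKM in wild type. In each genotype replicate 1 was the higher library, and the difference between replicates was larger than that between genotypes. Its log2 fold change was −0.13 with the widest interval of the 9, −0.82 to 0.57 (limma adjusted p = 0.906).

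*C4H* (AT2G30490, chromosome 2, 12993663 to 12995770, minus strand) is the single gene for its step in Arabidopsis. It had 196 and 169 RPKM in *stk*, against 184 and 154 RPKM in wild type. The libraries of the genotypes interleaved. It was the 1 member with a positive log2 fold change, 0.11 (SE 0.16, interval −0.29 to 0.52, limma adjusted p = 0.841).

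*4CL1* (AT1G51680, chromosome 1, 19158752 to 19161552, minus strand), the main 4CL of lignin formation, had 64.2 and 72.8 RPKM in *stk*, against 66.0 and 72.6 RPKM in wild type. The genotypes overlapped almost completely, with a log2 fold change of −0.02 (SE 0.15, interval −0.38 to 0.35, limma adjusted p = 0.977).

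*4CL2* (AT3G21240, chromosome 3, 7454269 to 7457379, minus strand) is the nearest relative of *4CL1*. It had 7.95 and 10.2 RPKM in *stk*, against 11.3 and 11.9 RPKM in wild type. Both *stk* libraries were lower, *stk* replicate 1 more so than *stk* replicate 2. The log2 fold change was −0.33 (SE 0.16, interval −0.74 to 0.07), with a limma unadjusted p of 0.0903 and an adjusted p of 0.593. Without *stk* replicate 2 the unadjusted p was 0.0393, and without *stk* replicate 1 the log2 fold change was −0.17.

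*4CL5* (AT3G21230, chromosome 3, 7448040 to 7452000, minus strand) lies next to *4CL2*, with 2268 bases between their models, and its enzyme is known for accepting sinapate. It had 7.47 and 8.85 RPKM in *stk*, against 9.40 and 7.93 RPKM in wild type. The libraries interleaved, and the log2 fold change was −0.08 (SE 0.16, interval −0.47 to 0.32, limma adjusted p = 0.899), so the neighbours had similar levels, and only *4CL2* of the pair had genotypes that did not overlap. Whether their changes differ was not tested.

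*4CL3* (AT1G65060, chromosome 1, 24167202 to 24171502, minus strand) is the 4CL linked with flavonoid synthesis. It had 43.1 and 42.9 RPKM in *stk*, against 54.2 and 45.4 RPKM in wild type. Both *stk* libraries were lower, and wild-type replicate 1 stood apart as the highest. This gave a log2 fold change of −0.20 (SE 0.15, interval −0.58 to 0.17, limma adjusted p = 0.711).

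The 9 genes have 13 gene models in the files, and in *4CL3* the 2 models had log2 fold changes of opposite sign. Model AT1G65060.1 had 33.5 and 36.9 RPKM in *stk*, against 48.4 and 41.2 RPKM in wild type, a log2 fold change of −0.34 (SE 0.16, limma unadjusted p = 0.105). Model AT1G65060.2, which in the reference annotation keeps an intron that AT1G65060.1 splices out and has a shorter coding sequence, had 9.59 and 6.05 RPKM in *stk*, against 5.83 and 4.17 RPKM in wild type, a log2 fold change of 0.54 (SE 0.28, limma unadjusted p = 0.126). Neither passed the threshold. AT1G65060.2 took 22.3% and 14.1% of the gene's RPKM in *stk*, against 10.8% and 9.20% in wild type, so its share was higher in both *stk* libraries. This share was given no test. Reads that fit both models were divided between them by the authors' software, and these shares rest on that division.

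For *4CL1* the smaller model AT1G51680.2 varied more between replicates than between genotypes, with 7.65 and 9.70 RPKM in *stk*, against 13.4 and 3.71 RPKM in wild type. AT1G51680.3 was listed above 0 in wild-type replicate 2 alone, at 0.746 RPKM. In *PAL3*, AT5G04230.2 took 72.4% and 73.3% of the RPKM in *stk*, against 67.0% and 60.9% in wild type.

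Close paralogs limit how exactly the family members can be told apart, and the largest shared stretch was in the PAL pair. The coding sequences of *PAL1* and *PAL2* were 82.9% identical, those of *4CL1* and *4CL2* 79.6% and those of *PAL3* and *PAL4* 76.6%, down to 62.2% for *4CL3* and *4CL5*. The longest identical run between *PAL1* and *PAL2* was 80 bases, more than the read length of 50 bases. It is shown in capitals with 30 bases on either side, from TAIR10.1 and on the coding strand.
PAL1 (chr2:15558500-15558639, minus strand): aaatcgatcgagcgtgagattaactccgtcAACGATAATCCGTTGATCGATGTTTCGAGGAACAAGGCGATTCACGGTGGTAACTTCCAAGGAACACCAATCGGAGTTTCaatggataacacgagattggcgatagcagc
PAL2 (chr3:19745154-19745293, minus strand): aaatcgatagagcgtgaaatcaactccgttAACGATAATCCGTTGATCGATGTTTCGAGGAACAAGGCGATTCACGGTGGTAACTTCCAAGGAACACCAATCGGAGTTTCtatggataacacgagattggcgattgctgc

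Windows of 50 bases were taken within single exons, so none crossed a splice junction. Of these, 2.89% in *PAL1* and 2.94% in *PAL2* matched more than 1 place in the genome with at most 2 mismatches. Each time the other place was in the other gene of the pair. The share was 0.939% in *4CL1* and 1.06% in *4CL2*, 0.342% in *PAL3* and 0.311% in *PAL4*, and 0 in *C4H*, *4CL3* and *4CL5*. Nearly all windows of every member thus matched a single place. In the reference annotation, though not in the coordinates of the files, *4CL5* overlaps *MKK5* and *4CL1* overlaps AT1G51670, both on the opposite strand, and no use of strand is stated for the counting.

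Summed by step, the PAL genes had 290 and 278 RPKM in *stk*, against 323 and 304 RPKM in wild type, with means of 284 ± 8.14 RPKM in *stk* and 313 ± 13.6 RPKM in wild type (SD, n = 2 each). Both *stk* sums were lower, with a ratio of 0.907. C4H stood at 183 ± 19.0 RPKM in *stk* and 169 ± 21.2 RPKM in wild type, a difference within the spread of the replicates. The 4CL genes had 123 and 135 RPKM in *stk*, against 141 and 138 RPKM in wild type, with a ratio of means of 0.924, and both *stk* sums were lower. The sums were not tested, and an exact permutation test on 2 and 2 libraries could not give a p below 0.333.

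*PAL1* took 52.6% and 51.4% of the PAL sum in *stk*, against 50.4% and 46.1% in wild type. *PAL4* took 17.2% and 20.2% in *stk*, against 20.1% and 24.9% in wild type. Its share overlapped between the genotypes, although its RPKM did not. *PAL2* was the steadiest with 29.1% and 27.7% in *stk*, against 28.3% in each wild-type library, and *PAL3* stayed between 0.723% and 1.26%. Within the 4CL sum, *4CL1* took 52.3% and 54.0% in *stk*, against 46.9% and 52.7% in wild type, and *4CL3* took 35.1% and 31.9% in *stk*, against 38.5% and 32.9% in wild type. *4CL2* took 6.48% and 7.54% in *stk*, against 7.99% and 8.66% in wild type, and was the 1 gene of the 4CL step whose share was lower in both *stk* libraries.

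**Figure D4:**
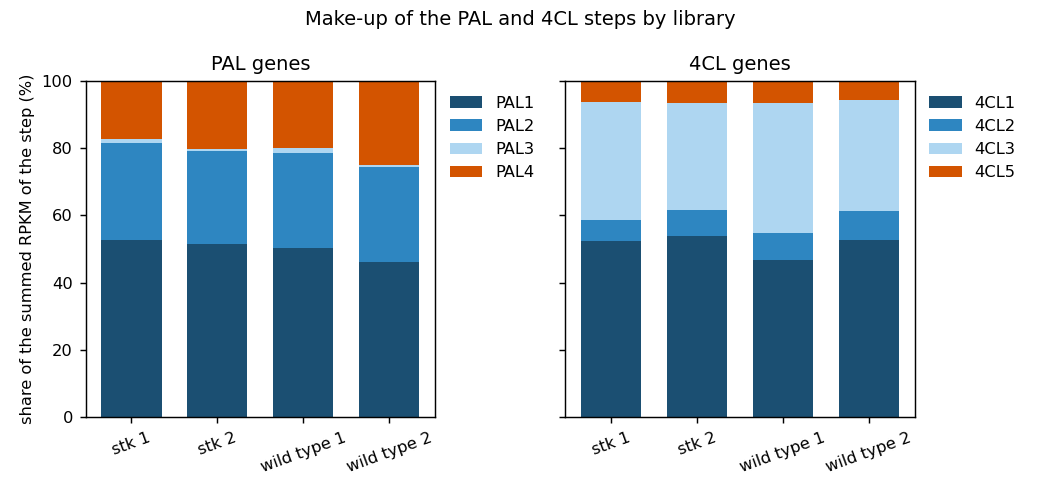
Share of the summed RPKM of the PAL step (left) and of the 4CL step (right) held by each gene, in percent, with 1 bar per library and *stk* libraries left of wild-type libraries. *PAL1* and *4CL1* hold the largest share in every library, and *PAL4* ranges from 17.2% in *stk* replicate 1 to 24.9% in wild-type replicate 2.

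The genes whose centred log2(RPKM + 1) profile over the 4 libraries lay nearest to that of *PAL4* were *SWA2* (AT1G72440), which acts in the female gametophyte, at a distance of 0.0219, and AT5G16100 at 0.0224. *SWA2* had 10.6 and 11.9 RPKM in *stk*, against 13.9 and 16.6 RPKM in wild type. AT5G16100 had 1.55 and 1.82 RPKM in *stk*, against 2.25 and 2.83 RPKM in wild type. With 4 libraries such likeness is a description alone.

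None of the genes that supply, degrade or assist the members passed the unadjusted threshold in limma, against 9.18% of all genes tested. The arogenate dehydratases make the phenylalanine that PAL uses. Of 6 genes, 0 passed an unadjusted p of 0.05, all had a negative log2 fold change, as did 11385 of the 19044 genes tested, and the median was −0.20. *ADT4* had 37.9 and 36.7 RPKM in *stk*, against 48.4 and 39.4 RPKM in wild type, and *ADT5* had 31.9 and 28.2 RPKM in *stk*, against 34.6 and 34.5 RPKM in wild type. Both were lower in both *stk* libraries. That held for 3 of the 6 dehydratase genes, against 26.8% of all genes tested. The Kelch F-box proteins mark PAL for degradation, and of the 3 tested of 4, 0 passed, with a median of −0.27. *KFB50*, the highest, had 45.8 and 39.8 RPKM in *stk*, against 47.0 and 45.4 RPKM in wild type. *KFB20* had 15.0 and 10.8 RPKM in *stk*, against 20.3 and 12.05 RPKM in wild type, so both overlapped. Of the 3 F-box genes tested, 1 was lower in both *stk* libraries, against the same 26.8% of all genes. Of the 4 partners of C4H at the endoplasmic reticulum, 0 passed and the median was −0.06. *MSBP1*, a scaffold for the P450 enzymes, had 135 and 98.3 RPKM in *stk*, against 110 and 104 RPKM in wild type, and *ATR2*, a P450 reductase, had 60.5 and 61.2 RPKM in *stk*, against 62.6 and 62.7 RPKM in wild type.

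Among 8 regulators of the pathway, 2 were higher in *stk* at an unadjusted p under 0.05, against 5.66% of all genes tested. At that threshold 0 were lower, against 3.53% of all genes, and the median was 0.23. The 2 higher genes are MYB factors of lignified cells with low levels. *MYB58* had 2.47 and 2.995 RPKM in *stk*, against 1.60 and 1.49 RPKM in wild type (log2 fold change 0.55, SE 0.15, limma unadjusted p = 0.0103, adjusted p = 0.502). *MYB85* had 1.70 and 1.65 RPKM in *stk*, against 1.19 and 0.959 RPKM in wild type (0.37, SE 0.14, limma unadjusted p = 0.0406, adjusted p = 0.526). *MYB4*, a repressor of *C4H* and the most abundant of the list, had 30.6 and 29.4 RPKM in *stk*, against 27.5 and 25.8 RPKM in wild type. *MED5a*, a Mediator subunit that restrains the pathway, had 15.4 and 20.1 RPKM in *stk*, against 16.1 and 16.0 RPKM in wild type.

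Of 5 secondary wall genes, markers of lignifying cells, 3 were higher in *stk* at an unadjusted p under 0.05, against 5.66% of all genes tested, and 0 passed after adjustment in limma. All 5 had both *stk* libraries above both wild-type libraries, against 16.3% of all genes, and the median log2 fold change was 0.66. The cellulose synthase gene *CESA7* had 30.6 and 46.1 RPKM in *stk*, against 17.1 and 23.3 RPKM in wild type (0.88, limma unadjusted p = 0.0142, adjusted p = 0.513). *CESA4* had 40.4 and 65.3 RPKM in *stk*, against 28.7 and 35.7 RPKM in wild type, and the laccase gene *LAC4* had 71.0 and 90.0 RPKM in *stk*, against 51.6 and 59.0 RPKM in wild type. Summed over the list, the level was 201 and 282 RPKM in *stk*, against 143 and 168 RPKM in wild type, and none of the 5 was at 0. The part of lignifying cells in the members' values was not tested.

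The branches after p-coumaroyl-CoA are given in turn, and differences between them were not tested. In the monolignol branch 0 of 11 genes passed an unadjusted p of 0.05 in limma, against 9.18% of all genes tested, with a median of 0.05. Its most abundant genes were *CCoAOMT1*, with 244 and 196 RPKM in *stk*, against 198 and 176 RPKM in wild type, and *COMT1*, with 167 and 158 RPKM in *stk*, against 193 and 147 RPKM in wild type. Both encode methyltransferases, and both overlapped. Of 5 early flavonoid genes 0 passed in limma, with a median of −0.05. Chalcone synthase (*CHS*) had 839 and 717 RPKM in *stk*, against 856 and 782 RPKM in wild type. In Baggerley's test *CHS* had an unadjusted p of 0.0158 and an adjusted p of 0.99994. Flavonol synthase (*FLS1*) had 235 and 192 RPKM in *stk*, against 292 and 207 RPKM in wild type.

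In the late flavonoid branch 3 of 3 genes were higher in *stk* at an unadjusted p under 0.05, against 5.66% of all genes tested. Each had an adjusted p of 0.249 in limma. In Baggerley's test all 3 passed, with an adjusted p of 3.0e-05 for *BAN*, 0.0035 for *LDOX* and 0.010 for *DFR*. Since the study chose this branch on the same libraries with its own run of that test, neither count is independent evidence. *BAN* had 77.4 and 89.8 RPKM in *stk*, against 36.9 and 39.8 RPKM in wild type. *LDOX* had 52.8 and 55.6 RPKM in *stk*, against 23.6 and 25.5 RPKM in wild type, and *DFR* had 48.7 and 47.2 RPKM in *stk*, against 21.8 RPKM in each wild-type library. All 3 were separated between the genotypes by more than the spread of the replicates.

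**Figure D5:**
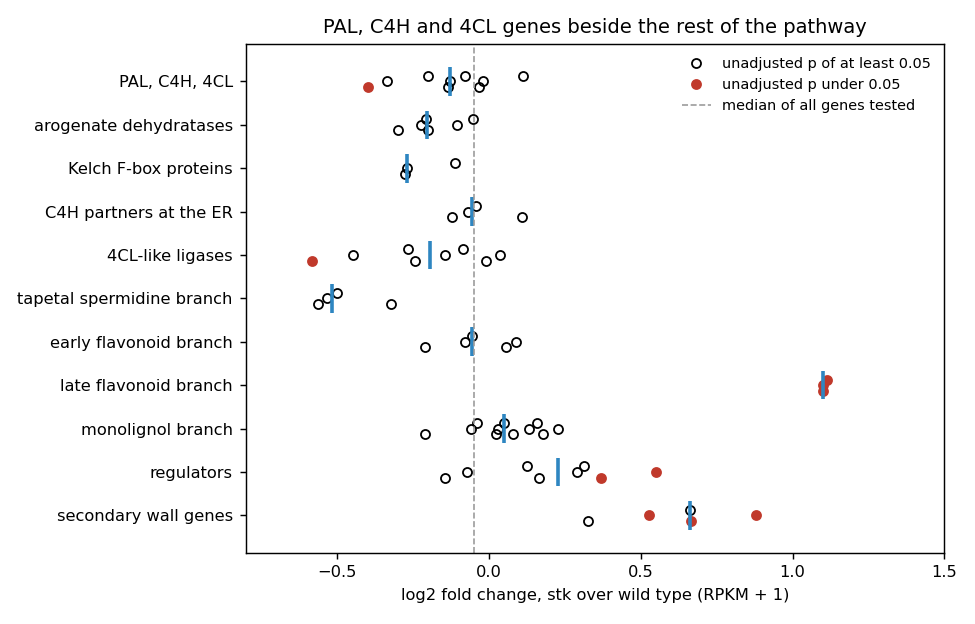
Log2 fold changes, *stk* over wild type, of RPKM + 1 for the members (top row) and 10 lists of related genes, with 1 circle per gene, filled red where the unadjusted limma p is under 0.05, a blue bar at each list's median and a dashed line at the median of all genes tested. The members lie between −0.40 and 0.11, the 3 late flavonoid genes near 1.1, and 3 of 5 secondary wall genes are filled on the right.

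The 4CL-like acyl-CoA ligases, 8 tested of 9, had a median log2 fold change of −0.19. Among them 1 was lower in *stk* at an unadjusted p under 0.05, against 3.53% of all genes tested. This was AT5G38120 (*4CL8*), with 11.3 and 9.77 RPKM in *stk*, against 18.7 and 14.0 RPKM in wild type (log2 fold change −0.58, SE 0.19, limma unadjusted p = 0.0221, adjusted p = 0.514). *ACOS5*, a fatty acyl-CoA synthetase of the tapetum, had 35.8 and 32.1 RPKM in *stk*, against 65.2 and 33.2 RPKM in wild type, so that 1 wild-type library stood apart. AT5G63380 had 21.8 and 20.8 RPKM in *stk*, against 24.7 and 20.8 RPKM in wild type. The ligase gene left untested by the filter, AT1G20500, went the other way at a low level. It had 1.14 and 1.73 RPKM in *stk*, against 0.445 and 0.441 RPKM in wild type. Of 4 genes of the tapetal hydroxycinnamoyl spermidine branch, which uses p-coumaroyl-CoA for the pollen coat, 0 passed, with a median of −0.51. *TSM1* had 86.8 and 66.7 RPKM in *stk*, against 112 and 81.5 RPKM in wild type, and *SHT* had 62.4 and 60.9 RPKM in *stk*, against 122 and 65.6 RPKM in wild type. In all 4 genes wild-type replicate 1 was the highest library, and their sum was 232 and 202 RPKM in *stk*, against 382 and 235 RPKM in wild type. *A9*, another gene of the tapetum, had 75.3 and 18.4 RPKM in *stk*, against 30.8 and 23.9 RPKM in wild type, so its highest library was *stk* replicate 1. Without wild-type replicate 1 the members' log2 fold changes ran from −0.51 for *PAL4* to 0.24 for *C4H*, with a median of −0.08. The part of anther content in the members' values was not tested.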

How the data were processed

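The authors trimmed the reads, mapped them to TAIR10 with CLC Genomics Workbench, shared reads that fit several places in proportion to unique reads, and deposited RPKM values per library for 35182 gene models (FastQC is also named in the submitters' processing notes). Deposited tables of enriched GO terms, the authors' own comparison, were not used. The columns of per-sample values were all used.

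RPKM values were summed over the models of a locus. Genes with a mean of at least 1 RPKM were tested with limma 3.58.1 in R 4.3.3 on log2(RPKM + 1), without a block, over all 4 libraries, with Benjamini-Hochberg adjustment, and intervals are at 95%. The pseudocount of 1 understates changes of low genes. Library sizes came from RPKM spacing at 4980 genes with 1 model, and 98.2% to 98.7% of low values were whole reads within 0.01. The members had 109 to 12179 reads per library. These are estimates that rest on the library sizes and on exon lengths recovered from the RPKM values. Reference lengths served only to choose among multiples of a recovered length. For *PAL1* the recovered length was 2530 bases and the reference length 2931 bases. Sequences were read from the TAIR10.1 genome (RefSeq, with newer gene models) at the model starts in the files, and start and end are unchanged there for 26.6% of models. Windows of 50 bases were mapped with bwa 0.7.19, motifs and identities were computed with biopython 1.88, and other steps used Python 3.11.15. Baggerley's test was recomputed on the summed RPKM values and is not the run of the study's software. The limma and Baggerley tests were tested on simulated data.

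Named are the members, *STK*, per list the 2 genes with the highest mean RPKM and every gene with an unadjusted p under 0.05, and the 2 profiles nearest to *PAL4*. Tissue markers, genes that share bases with a member in the reference, and the untested ligase gene AT1G20500 are named as checks. Members and lists were chosen with earlier results of these data known.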

Additional observations from a re-analysis of the deposited data

How the results depend on the processing

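The alternatives were single gene models, a pseudocount of 0.1, other filters, quantile normalization, median-of-ratios scaling, limma with trend, a replicate block, removal of each library's trend against exon length, Baggerley's test and leaving out each library. The members' median log2 fold change was −0.13 and stayed between −0.19 and −0.01 in the limma fits, with −0.01 after removal of the length trend, and as log2 ratios in Baggerley's test it was −0.20. *PAL2*, *PAL4*, *4CL2* and *4CL3* kept their sign in all 14 alternatives fitted with limma, and 15 of 126 member values changed sign. These 14 include a block with crossed numbers, given below, and leave out Baggerley's test. The other filters, limma with trend and both blocks left every member's log2 fold change as it was. Those settings could not change a sign, so the counts overstate how far the signs were tried. The count of 1 member with an unadjusted p under 0.05 was 0 with gene models, the pseudocount of 0.1, quantile normalization, median-of-ratios scaling and the length trend removed, and 0 to 2 with a library left out. The cause was not tested. Genes with an adjusted p under 0.05 numbered 0 in the reported fit, 2 with gene models, 5 with quantile normalization, 1 with trend, 4 with the length trend removed and 67 with Baggerley's test. With a library left out they numbered 0 to 1575: 336 without *stk* replicate 1, 1575 without *stk* replicate 2 and 0 without either wild-type library, where the lone library is assumed to vary like the other genotype. Genes with an unadjusted p under 0.05 numbered 1749, against 2717 without *stk* replicate 2, 745 without wild-type replicate 1 and 461 with Baggerley's test.

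The sign turned for *PAL3* with gene models (0.0052), for *PAL1* (0.014) and *4CL1* (0.029) with median-of-ratios scaling, and for *PAL1* (0.090), *4CL1* (0.073) and *4CL5* (0.0045) with the length trend removed. With a library left out the log2 fold change ranged from −0.14 to 0.075 for *PAL1*, −0.46 to 0.21 for *PAL3*, −0.014 to 0.24 for *C4H*, −0.11 to 0.072 for *4CL1* and −0.19 to 0.033 for *4CL5*. Same-numbered libraries deviated from their genotype means with r = −0.13 over 19044 genes, which gives no sign of pairing by number. With so few libraries this value cannot tell whether they were grown or handled in pairs. With the replicate block in limma 0 genes passed after adjustment and 2067 had an unadjusted p under 0.05. That limma fit gave *PAL4* an unadjusted p = 0.0255. A block with crossed numbers, chosen after seeing the data, gave 921 genes after adjustment and 0 members at an unadjusted p under 0.05.

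*PAL3*, with at most 246 reads in a library, had the widest interval of the members. What depth and replicate spread each add to it was not tested.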
